A study of Mus musculus with 4 samples.

Results

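The genes described here are 10 genes of Leydig cell hormone production in the mouse testis: *Lhcgr*, *Scarb1*, *Star*, *Fdx1*, *Cyp11a1*, *Hsd3b1*, *Hsd3b6*, *Cyp17a1*, *Hsd17b3* and *Insl3*. They were chosen for their known roles, but with earlier results of these data known. Each was taken as the row with that symbol among exon sense reads, which lie in exons and in the direction of the gene. All 10 were found among 12415 exon sense features, of 25745 features in all annotation categories. Total testicular RNA had been sequenced from 60-day-old C57Bl/6J mice, as 2 *Nef-sp*-/- and 2 *Nef-sp*+/- libraries, to ask what the loss of *Nef-sp*, a gene expressed in the testis, does to other transcripts. Both genotypes come from 1 mutant line, whose *Nef-sp* allele lacks 23 bp and is out of frame. It was made by genome editing of embryos with a Cas9 nickase and paired guides, and wild-type C57Bl/6J Rj males were used to set it up. The *Nef-sp*+/- controls carry the same deletion on 1 allele, so that the difference measured is that between no intact allele and 1 intact allele. The labels number the replicates but do not state that each library came from a separate animal, and the p-values measure only the spread between these libraries.

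Leydig cells lie between the seminiferous tubules and make testosterone from cholesterol when luteinizing hormone binds its receptor. Cholesterol is taken up from lipoproteins or made in the cell, is moved to the inner mitochondrial membrane, and loses its side chain there to become pregnenolone. Enzymes of the endoplasmic reticulum then convert pregnenolone to androgens, and the same cells secrete the peptide hormone INSL3. Because whole testis was measured, fewer Leydig cells and less RNA per Leydig cell cannot be told apart.

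No exon sense transcript of the 10 genes passed the threshold of an adjusted p of 0.05 between genotypes (quasi-likelihood test of edgeR, Benjamini-Hochberg adjusted over 10728 features, of which 0.00932% were called). The call rate rests on 1 feature, *Nef-sp* itself (2610020H08Rik), which fell from 1843 and 1693 normalized counts in the *Nef-sp*+/- libraries to 407 and 497. DESeq2 also called 0 of the 10 genes. *Cyp11a1* and *Cyp17a1*, the cytochrome P450 enzymes of the pathway, were the 2 of 10 with an unadjusted p below 0.05 in either tool, against 4.80% of all features in edgeR and 1.38% in DESeq2. Both were lower in *Nef-sp*-/-, at 78.5% and 82.8% of the *Nef-sp*+/- mean, and 2.83% of all features were lower at that unadjusted level. Both genotypes' libraries did not overlap for 4 of 10 genes, *Cyp11a1*, *Cyp17a1*, *Fdx1* and *Hsd17b3*, and all 4 were lower in *Nef-sp*-/-. Of all features, 34.5% had no overlap, 18.1% being lower and 16.4% higher.

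The members lay on both sides of 0, with 5 negative log2 fold changes of 10 (50.1% of all features were negative). Their median log2 fold change was −0.044, beside −2.2e-04 for all features, whose median absolute value was 0.071. The 95% interval of each of the 10 genes lay within −1 and 1 on the log2 scale, as it did for 94.7% of all features. As a percentage of the control level, the intervals ran from 82.0% to 101% for *Fdx1*, 83.1% to 105% for *Scarb1*, 72.3% to 154% for *Star*, 89.2% to 114% for *Hsd3b6* and 98.5% to 125% for *Hsd3b1*. They ran from 74.2% to 103% for *Hsd17b3* and from 93.8% to 138% for *Insl3*.

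**Figure D1:**
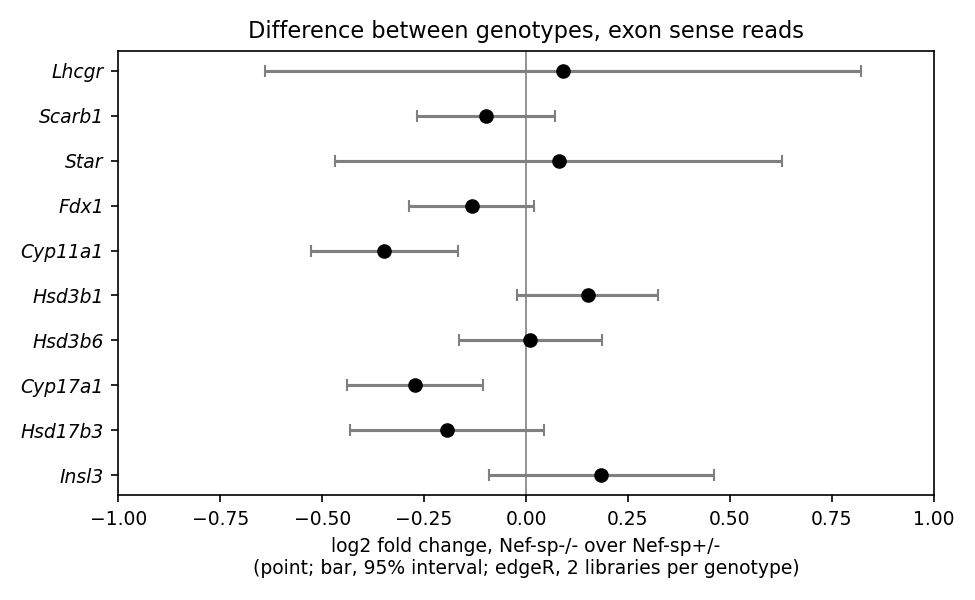
Log2 fold change of exon sense reads in *Nef-sp*-/- over *Nef-sp*+/- testis for the 10 genes, in the order of their roles. Points are edgeR estimates from 2 libraries per genotype, and bars are unadjusted 95% intervals. The bars of *Cyp11a1* and *Cyp17a1* end below 0, and the bars of the other 8 genes include 0.

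*Lhcgr* encodes the receptor for luteinizing hormone (mm9, chr17:89140889-89191316, minus strand). It had 28.8 and 17.6 normalized counts in the controls, against 19.6 and 27.2 in *Nef-sp*-/-. The *Nef-sp*+/- libraries were both the highest and the lowest, so the genotypes overlapped. These values rest on 90 reads over the 4 libraries. The log2 fold change was 0.090 (SE 0.331, edgeR adjusted p = 0.990), with an interval from 64.1% to 177% of the *Nef-sp*+/- level, the widest of the 10 intervals.

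*Scarb1* encodes the scavenger receptor that takes up cholesterol esters from high density lipoprotein (chr5:125757457-125821464, minus strand). It had 1617 and 1722 normalized counts in *Nef-sp*+/-, against 1676 and 1448 in *Nef-sp*-/-. Replicate 2 of *Nef-sp*-/- was the lowest, while replicate 1 lay between the control libraries. The log2 fold change was −0.098 (SE 0.0770, edgeR adjusted p = 0.954).

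*Star* encodes the protein that moves cholesterol into mitochondria, the step on which luteinizing hormone acts most rapidly (chr8:26918946-26925782, plus strand). The *Nef-sp*+/- libraries had 1366 and 2030.2 normalized counts, and the *Nef-sp*-/- libraries 2403 and 1214. The highest and the lowest library were both *Nef-sp*-/-, a ratio of 1.98 between them. The means were 1698 ± 469.6 and 1809 ± 841 (SD, n = 2 each), with a log2 fold change of 0.080 (SE 0.248, edgeR adjusted p = 0.989). The spread between replicates was larger than the difference between genotypes.

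*Fdx1* encodes ferredoxin, which carries electrons to the mitochondrial P450 enzymes (chr9:51751412-51771661, minus strand). Normalized counts of 737 and 732 in *Nef-sp*+/- stood against 684 and 654 in *Nef-sp*-/-. Both *Nef-sp*-/- libraries were below both controls by a small margin. The means were 734 ± 3.49 and 669 ± 20.7 (SD, n = 2 each), with a log2 fold change of −0.13 (SE 0.0693, edgeR adjusted p = 0.954).

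*Cyp11a1* encodes the mitochondrial enzyme that cleaves the side chain of cholesterol, the first enzymatic step of steroid synthesis (chr9:57862820-57874827, plus strand). The *Nef-sp*+/- libraries had 3511 and 3248 normalized counts, and the *Nef-sp*-/- libraries 2886 and 2422. Both *Nef-sp*-/- libraries were below both controls, and replicate 2 was the lowest. The means were 3380 ± 186 and 2654 ± 328 (SD, n = 2 each), and the log2 fold change was −0.35 (SE 0.0820, edgeR unadjusted p = 0.00148 and adjusted p = 0.859). The interval was 69.3% to 89.1% of the control level, and the gene was number 17 of 10728 features in order of p.

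*Cyp17a1* encodes the microsomal P450 that turns C21 steroids into androgen precursors (chr19:46741655-46747464, minus strand). It had 10616 and 10209 normalized counts in *Nef-sp*+/-, against 9284 and 7950.2 in *Nef-sp*-/-. The order of the libraries was the same as for *Cyp11a1*. The means were 10413 ± 288 and 8617 ± 943 (SD, n = 2 each), and the log2 fold change was −0.27 (SE 0.0754, edgeR unadjusted p = 0.00420 and adjusted p = 0.954), number 43 in order of p, with an interval of 73.7% to 92.9% of the control level.

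Neither P450 gene was called with all 4 libraries and no replicate block, and both were called when either control library was left out. Without *Nef-sp*+/- replicate 1, *Cyp11a1* had a log2 fold change of −0.29 (edgeR adjusted p = 0.0272) and *Cyp17a1* of −0.24 (edgeR adjusted p = 0.0216), and 0.376% of all features were called. Without *Nef-sp*+/- replicate 2, the values were −0.40 (edgeR adjusted p = 3.4e-04) and −0.30 (edgeR adjusted p = 0.0013), and 2.32% of all features were called. With 1 library left in a genotype, its spread is assumed to be that of the other genotype. Without either *Nef-sp*-/- library, neither gene was called, and without *Nef-sp*-/- replicate 2 the log2 fold changes were −0.22 and −0.16. The ratio of *Cyp17a1* to *Cyp11a1* reads was 3.02 and 3.14 in the controls, against 3.22 and 3.28.

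*Hsd3b1* and *Hsd3b6* encode 3β-hydroxysteroid dehydrogenases, which convert pregnenolone and its derivatives to the steroids with a 4-ene-3-keto ring. They lie near each other on the minus strand of chromosome 3 (chr3:98656117-98663717 and chr3:98609427-98618366). *Hsd3b1* had 1639 and 1506 normalized counts in *Nef-sp*+/-, against 1620.2 and 1866 in *Nef-sp*-/-. *Hsd3b6* had 1882 and 2191, against 1968 and 2146. Both genes overlapped between genotypes. The log2 fold change of *Hsd3b1* was 0.15 (SE 0.0783, edgeR adjusted p = 0.954), and that of *Hsd3b6* was 0.010 (SE 0.0797, edgeR adjusted p = 0.992). For *Hsd3b1* it was 0.25 without *Nef-sp*-/- replicate 1, 0.049 without *Nef-sp*-/- replicate 2 and 0.089 without *Nef-sp*+/- replicate 2.

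How well 50-base reads separate this pair can be read from their sequences. The coding sequences of ENSMUST00000107016 (*Hsd3b1*) and ENSMUST00000029463 (*Hsd3b6*) have 1122 bases each and differ at 112 of them, an identity of 90.0%. The longest run of identical bases, 72, is shown here within coding bases 239 to 332 of GENCODE vM1, where capitals mark the 2 bases that differ.
Hsd3b1: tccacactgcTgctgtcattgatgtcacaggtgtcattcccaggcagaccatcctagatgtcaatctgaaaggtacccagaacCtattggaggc
Hsd3b6: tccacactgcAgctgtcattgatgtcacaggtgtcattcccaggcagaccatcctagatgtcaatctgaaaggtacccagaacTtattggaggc
A read of 50 bases from inside the lower-case stretch matches both genes. Of the 1803 stretches of 50 bases in the *Hsd3b1* transcript, 40 (2.22%) also occur in other *Hsd3b* transcripts. For *Hsd3b6*, 281 of 1753 (16.0%) also occur in transcripts of other genes, among them *Hsd3b1*, *Hsd3b2*, *Hsd3b3*, *Hsd3b4* and *Hsd3b5*. The assignment of such reads is not given in the sources used here, so that the *Hsd3b6* count is uncertain to that extent.

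*Hsd17b3* encodes the 17β-hydroxysteroid dehydrogenase that makes testosterone from androstenedione (chr13:64159582-64190509, minus strand). The controls had 413 and 339 normalized counts, and the *Nef-sp*-/- libraries 319 and 331. Both *Nef-sp*-/- libraries were below both controls, and control replicate 2 lay closer to them than to control replicate 1. The log2 fold change was −0.19 (SE 0.107, edgeR adjusted p = 0.954). It was −0.062 without *Nef-sp*+/- replicate 1 and −0.35 without *Nef-sp*+/- replicate 2.

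*Insl3* encodes insulin-like peptide 3, the Leydig cell hormone needed for descent of the testis (chr8:74213113-74214474, plus strand). It had 353 and 375 normalized counts in *Nef-sp*+/-, against 352 and 479 in *Nef-sp*-/-. The libraries of both genotypes overlapped, with *Nef-sp*-/- replicate 2 the highest. The log2 fold change was 0.18 (SE 0.125, edgeR adjusted p = 0.954). *Insl3* lies inside the annotated *Jak3* gene on the same strand, a kinase gene that runs from 74200195 to 74214474. Of the 574 stretches of 50 bases in the *Insl3* transcript, 355 (61.9%) are also part of *Jak3* transcripts. *Jak3* had 10858 and 11784 normalized counts in the controls, against 11785 and 12910.4 (log2 fold change 0.12, edgeR adjusted p = 0.954). Reads shared by these genes could be counted for either. The part of *Jak3* in the *Insl3* count was not tested, nor were *Insl3* reads counted for *Jak3*.

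Levels were compared between genes after division by the length of their exons, as reads per kilobase and per 1000000 reads of the TMM-scaled exon sense library size (RPKM). *Cyp17a1* was the most abundant, at 236 ± 29.3 RPKM (SD, n = 4), followed by *Cyp11a1* at 91.3 ± 14.3, *Hsd3b6* at 61.0 ± 4.36 and *Hsd3b1* at 48.0 ± 4.36. No library value of these 4 enzymes overlapped with that of its neighbor in this order. *Insl3* (33.6 ± 5.21 RPKM) and *Star* (27.9 ± 8.91 RPKM) overlapped with each other. *Hsd17b3* (14.6 ± 1.78 RPKM) overlapped with *Scarb1* (13.8 ± 1.02 RPKM), which overlapped with *Fdx1* (12.1 ± 0.684 RPKM). *Lhcgr* was last at 0.490 ± 0.116 RPKM, and *Fdx1* was 24.8-fold higher. With the longest transcript as the length, 4 of the genes changed place, *Insl3* with *Star* and *Hsd17b3* with *Scarb1*. The level of *Scarb1* was then 2.03-fold higher. Its libraries (25.1 to 29.9 RPKM) no longer overlapped with those of *Hsd17b3* (13.3 to 17.2), while *Hsd3b1* overlapped with *Star*. The exons of *Scarb1* cover 6291 bases over all its transcripts, and the longest transcript has 3093 bases in 2 exons. Its longest protein-coding transcript has 2521 bases, so that the place of *Scarb1* depends on the annotation. All 10 genes together took 0.113% of exon sense reads.

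**Figure D2:**
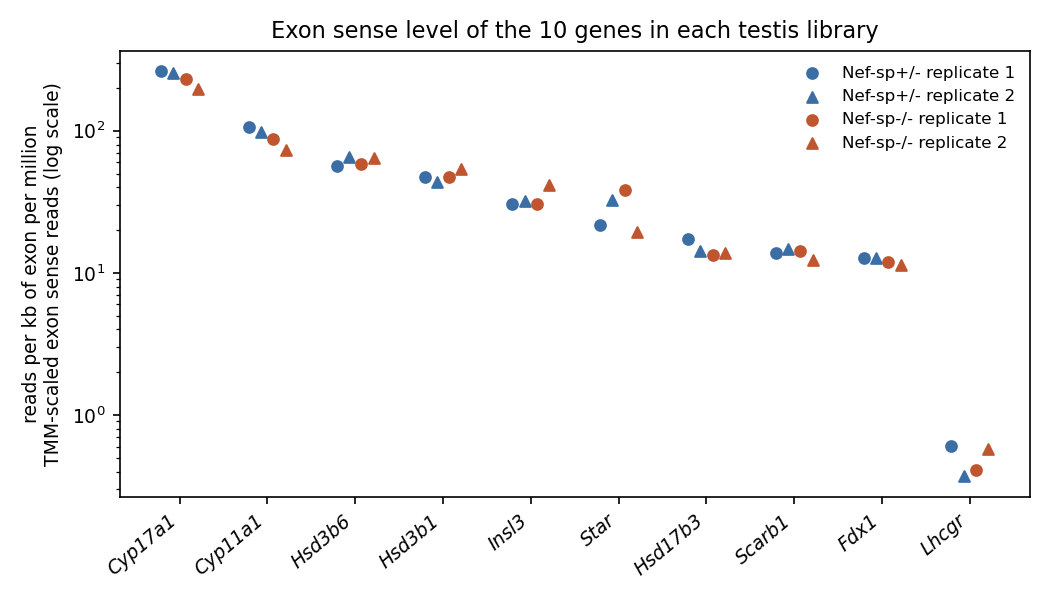
Level of each of the 10 genes in each library, in RPKM on a log axis. Genes are ordered by their mean over the 4 libraries, which runs from 236 for *Cyp17a1* to 0.490 for *Lhcgr*. The levels of *Insl3* and *Hsd3b6* depend on how reads shared with other genes were assigned.

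Summed over the 10 genes, the level was 1190 and 1201 CPM (counts per 1000000 reads of the TMM-scaled exon sense library size) in the controls, against 1139 and 995 CPM in *Nef-sp*-/-. Both *Nef-sp*-/- libraries were lower, and replicate 2 stood farthest from the rest at 83.3% of the control mean. The means were 1195 ± 7.88 and 1067 ± 101 (SD, n = 2 each), a difference of −128 (exact two-sided permutation test, p = 0.33, the smallest that 2 libraries against 2 allow). Most of the difference came from the most abundant gene, and without *Cyp17a1* it was −32.0 (exact permutation p = 0.667). That sum still held *Cyp11a1*, with means of 3380 and 2654 normalized counts, while 5 of the 10 genes had positive log2 fold changes. Per 1000000 exon sense reads without TMM, the sums were 1217 and 1193 in the controls, against 1124 and 991, a difference of −148.

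The genes were not lower together in *Nef-sp*-/- replicate 2. Relative to replicate 1 of that genotype, *Cyp11a1*, *Cyp17a1*, *Scarb1*, *Star* and *Fdx1* had lower normalized counts there, and *Hsd3b1*, *Hsd3b6*, *Insl3*, *Lhcgr* and *Hsd17b3* had higher ones. As a ratio within each library, *Hsd3b1* to *Cyp11a1* reads were 0.467 and 0.464 in the controls, against 0.561 and 0.770. The *Nef-sp*-/- ratios were both higher (exact two-sided permutation test, p = 0.33, the smallest possible here). The *Hsd3b1* to *Cyp17a1* ratio went from 0.154 and 0.147 to 0.174 and 0.235. Other ratios that were computed overlapped between genotypes. *Hsd3b6* to *Hsd3b1* was 1.15 and 1.45 in the controls, against 1.21 and 1.15. *Star* to *Cyp11a1* was 0.389 and 0.625, against 0.833 and 0.501, and *Star* to *Scarb1* was 0.845 and 1.18, against 1.43 and 0.838.

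The spread between replicates was wide for most of the genes. It was taken as the SD of log2 normalized counts within genotypes, and compared with features whose mean count lay within 0.5 log2 units. *Star* had an SD of 0.569, and 0 of 1326 features of like count had a higher one. *Insl3* had 0.226, with 31 of 1485 features higher, and *Cyp11a1* had 0.138, with 61 of 1053 higher. *Fdx1* was the exception among the 10, with an SD of 0.0320 and 1272 of 1475 features higher. Of the 10 genes, 9 were in the 20% of features with the highest SD for their count, as were 20.1% of all features. The genes share their libraries and largely their cells, so that they are not independent of each other. Of other lists of testis cell markers, 6 of 10 Leydig, 5 of 11 Sertoli, 5 of 13 germ cell, 1 of 6 peritubular myoid, 2 of 8 macrophage and 1 of 3 endothelial genes were in that range, as were 7 of 33 other steroid synthesis genes and 6 of 19 cholesterol genes.

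**Figure D3:**
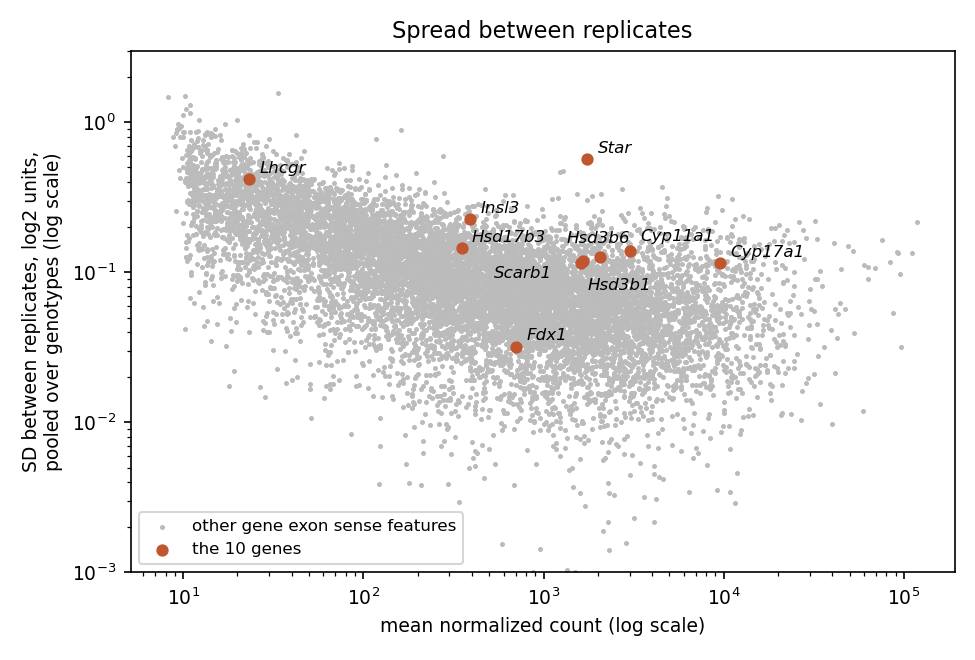
SD between replicates, pooled over genotypes in log2 units, against mean normalized count for all tested exon sense features, both on log axes. Grey points are other features, and values under 0.001 are drawn at 0.001. Of the 10 labeled genes, *Star* (0.569) lies above all features of like count, and *Fdx1* (0.0320) lies below most of them.

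Intron sense reads, which come mostly from unspliced transcripts, were listed for 7 of the 10 genes, and 3 had enough reads to be tested. None of the 3 passed the threshold, and 0 of the 3 had an unadjusted p below 0.05 (edgeR's quasi-likelihood test over 3403 features, of which 0.0294% were called and 2.35% had an unadjusted p below 0.05). DESeq2 called 0 of them as well. *Scarb1* had 129 and 138 normalized intron counts in the controls, against 160 and 112, with a log2 fold change of 0.015. *Fdx1* had 26.9 and 19.1 against 23.8 and 18.7, with a log2 fold change of −0.079. *Hsd3b1* had 12.3 and 14.7 against 15.5 and 16.5, with a log2 fold change of 0.22, which was 0.11 without *Nef-sp*+/- replicate 1 and 0.36 without *Nef-sp*+/- replicate 2. Both of its *Nef-sp*-/- libraries were higher, as they were for 13.5% of intron features. For *Cyp11a1* and *Cyp17a1*, whose exon reads were lower, 13 and 15 intron reads in all 4 libraries were too few to be tested.

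Intron reads were unevenly shared among the 10 genes. Per 100 exon sense reads there were 8.26 intron sense reads for *Scarb1*, 3.08 for *Fdx1*, 0.902 for *Hsd3b1*, 0.716 for *Hsd17b3*, 0.106 for *Cyp11a1*, 0.0726 for *Hsd3b6* and 0.0390 for *Cyp17a1*. No intron sense reads were listed for *Lhcgr*, *Star* and *Insl3*. The median was 1.52 over 6441 features, fewer than the 12415 exon sense features, and intron length was not taken into account. *Scarb1* also had 700 antisense reads in its introns, against 539 sense reads. In GENCODE vM1, no annotated gene overlaps *Scarb1* on the opposite strand. Its antisense intron reads were 163 and 195 normalized counts in the controls, against 175 and 153, which overlapped (log2 fold change −0.15, edgeR unadjusted p = 0.303 and adjusted p = 0.969). In that category edgeR and DESeq2 called 0 of 1421 features, and 4.50% had an unadjusted p below 0.05 in edgeR. The antisense exon reads of *Star* and *Fdx1*, 5 and 11 in all, were too few to be tested.

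Other genes of steroid synthesis, its electron donors, metabolism and regulation made up a list of 42, of which 37 were matched and 33 tested. None passed the threshold, and 1 had an unadjusted p below 0.05 (4.80% of all features in edgeR). Without overlap, 6 were lower and 6 higher (18.1% and 16.4% of all features). The median log2 fold change was 0.0097. The gene with the smallest p was *Por*, the reductase that supplies electrons to microsomal P450 enzymes such as CYP17A1, with 183 and 176 against 161 and 131 normalized counts (log2 fold change −0.29, edgeR adjusted p = 0.954). Both *Nef-sp*-/- libraries were lower for *Por*. The next were *4921521F21Rik*, a synonym of *Akr1cl* (2682 and 2601 against 2282 and 2512), and the mitochondrial dehydrogenase gene *Hsd17b10* (95.5 and 93.0 against 68.1 and 81.6). The most abundant were *Stard6*, *Lipe* and *Crem*, with log2 fold changes of 0.15, 0.11 and 0.022. These are also expressed in germ cells. *Fdxr*, which reduces ferredoxin and was chosen after its values were seen, had 354 and 298 against 292 and 292, and *Nr5a1*, the steroidogenic factor 1 gene, also chosen so, had a log2 fold change of 0.13.

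Cholesterol synthesis and uptake genes numbered 21, all matched and 19 tested. None passed the threshold, and 1 had an unadjusted p below 0.05 (4.80% of all features in edgeR). Without overlap, 3 were lower and 3 higher (18.1% and 16.4% of all features), with a median log2 fold change of −0.027. *Fdft1* and *Sqle*, abundant genes of the list that encode the enzymes making squalene and its epoxide, had log2 fold changes of −0.027 and 0.037.

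Other Leydig cell markers numbered 15, of which 11 were matched and 10 tested. None passed the threshold, 2 had an unadjusted p below 0.05, and 4 were lower and 0 higher without overlap, with a median log2 fold change of −0.10. Of all features, 4.80% had an unadjusted p below 0.05 in edgeR, and 18.1% were lower and 16.4% higher without overlap. *Ephx1*, an epoxide hydrolase, had 3035 and 2696 against 2349 and 2501 normalized counts (log2 fold change −0.24, edgeR adjusted p = 0.954). *Pdgfra*, a growth factor receptor of Leydig and other interstitial cells, had 208 and 187 against 149 and 172 (log2 fold change −0.29). The log2 fold change of *Ptgds*, next by p, was 0.17, and those of the abundant *Aldh1a1* and *Gstm2* were −0.15 and 0.023. The summed level of this list was 1027 and 929 CPM in the controls, against 858 and 1014. The genotypes overlapped, and *Nef-sp*-/- replicate 1 was lowest here, where replicate 2 was lowest for the 10 genes.

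Markers of other testis cells were summed in the same way. The Sertoli list (12 of 14 matched, with *Clu*, *Amhr2* and *Cldn11* the most abundant) had 1195 and 1194 CPM in the controls, against 1160 and 1226. The peritubular myoid list (7 of 8, with *Mylk*, *Acta2* and *Myh11*) had 132 and 128 against 116 and 131. The macrophage list (11 of 12, with *Aif1*, *Mrc1* and *Lyz2*) had 434 and 467 against 479 and 481, without overlap and higher in *Nef-sp*-/- (exact permutation p = 0.33). *Aif1* alone had 347 and 381 CPM, against 399 and 389, and without it the list had 86.9 and 86.2 CPM, against 79.9 and 92.0, which overlapped. Of the 8 macrophage genes tested, 5 had negative log2 fold changes (median −0.060). Without overlap, 3 were lower and 1 higher, beside 18.1% and 16.4% of all features. The endothelial list (7 of 8, with *Vwf*, *Cdh5* and *Flt1*) had 3.58 and 4.57 against 3.53 and 3.68. The germ cell list (14 of 14, with *Prm2*, *Tnp2* and *Prm1*) had 20103 and 24507 against 24805 and 24185, and *Nef-sp*+/- replicate 1 was lowest. The markers *Fshr*, *Cd14*, *Tie1* and *Esam* had 0 reads in 1 library each and at most 3 in the others. No gene of these lists passed the threshold. Median log2 fold changes of the tested genes were −0.092 for Sertoli (11 genes), −0.048 for myoid (6), −0.47 for endothelial (3) and 0.10 for germ cells (13). Their smallest p values were those of *Espn* (log2 fold change −0.34), *Acta2* (−0.16), *C1qa* (−0.40), *Cdh5* (−0.65) and *Tnp1* (0.18). In all, 7 of 102 tested genes of these and the preceding lists had an unadjusted p below 0.05 in edgeR and 3 in DESeq2. The shares of all features were 4.80% and 1.38%, and DESeq2 called 0 of the 102. The part of these cell types in the values of the 10 genes was not tested.

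Of 6 genes listed for adrenal and ovarian steroid production, *Cyp19a1* was matched among exon sense features. No exon sense feature was matched for the other 5. *Cyp19a1* encodes aromatase, which makes estrogens from androgens. It had 20.7 and 26.1 normalized counts in the controls, against 31.2 and 37.9. Both *Nef-sp*-/- libraries were higher, with a log2 fold change of 0.52 (SE 0.261, edgeR unadjusted p = 0.0709 and adjusted p = 0.954).

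**Figure D4:**
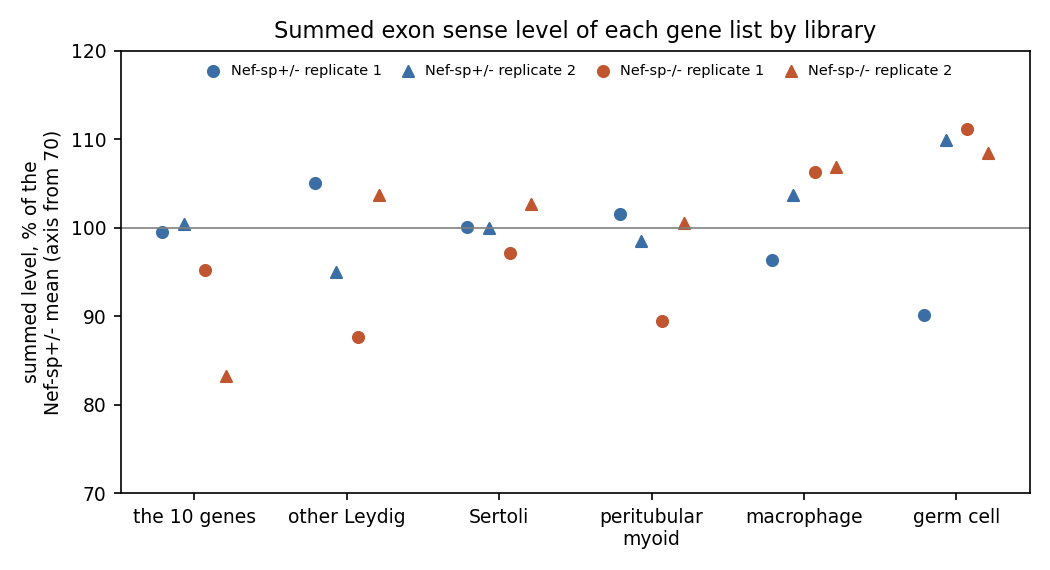
Summed exon sense level of each gene list in each library, as a percentage of the *Nef-sp*+/- mean. The axis starts at 70. For the 10 genes, the *Nef-sp*-/- libraries are at 95.3% and 83.3%, and for the other Leydig markers they are at 87.7% and 104%.

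The features whose profile over the 4 libraries was most like the median of the 10 genes were *Dip2b*, *Usp45*, *Dhx16*, *Cuedc2* and *Obfc2b*. The root mean square difference in log2 CPM lay between 0.00646 and 0.0113 among 8202 candidates. The median profile had deviations of 0.038 and 0.079 in the controls, against −0.043 and −0.086, above 0 in both controls and below 0 in both *Nef-sp*-/- libraries. This median was taken in each library separately, so that it need not be the profile of any 1 gene. Of the 10 genes, 5 had positive log2 fold changes.

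The libraries had between 20659865 and 34442517 reads in all categories, and between 15815159 and 26618821 exon sense reads. Replicates differed by more than counting noise, and chi-square over its degrees of freedom was 8.53 for the controls and 3.52 for *Nef-sp*-/-.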

How the data were processed

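The authors sequenced 4 strand-specific testis RNA libraries depleted of ribosomal RNA, trimmed adapters and kept reads that matched mm9 perfectly, using in-house tools. They deposited raw read counts per feature, annotation category and strand. Tool versions and the treatment of multi-mapped reads are not given in the sources used here. The authors also deposited a mean normalized signal per feature, a log2 fold change, and p-values from DESeq2, which compare the genotypes and were not used.

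Genotype and replicate number came from the labels. The counts of each category were scaled by TMM, passed through the expression filter (minimum count 10) and compared with edgeR 4.0.16 (R 4.3.3; quasi-likelihood test, no covariates), with Benjamini-Hochberg adjustment within the category. Normalized counts are scaled to the mean effective library size. Standard errors (SE) were derived from the F statistic, and intervals are unadjusted. Symbols, positions and exon lengths come from GENCODE vM1 on mm9. Listed symbols were matched to features directly or by the synonyms in a gene table from RefSeq.

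The 10 genes and the other lists were chosen with earlier results of these data known. Named from each other list were the 3 genes with the highest mean count and the gene with the smallest p (the 3 smallest for the steroid synthesis and Leydig lists). Some genes that this rule names in the cholesterol list are not reported here. The 5 genes of like profile had a mean count of at least 100. Summed levels were compared by an exact permutation test. The test was checked on simulated data with known changes. Alternatives were other scalings and filters, DESeq2 1.42.0, 1 joint fit of all categories, a replicate block, and leaving out each library. The numbers exchanged in *Nef-sp*-/- and the macrophage sum without its most abundant gene were added after seeing the data. Figures were drawn with matplotlib 3.10.9.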

Additional observations from a re-analysis of the deposited data

How the results depend on the processing

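Beside the values here, the direction and the side of the threshold were kept in 147 of 168 values recomputed for the 10 genes. The number of exon sense features called was 1, 2 with DESeq2, and between 1 and 252 when each library was left out. Members called were between 0 and 2 and other listed genes between 0 and 9 in those fits, with the nonzero counts reached only without a *Nef-sp*+/- library. With the replicate number as a block, 1 feature and 0 of the 10 genes were called, *Cyp11a1* had −0.35 and *Scarb1* intron sense reads turned to −9.5e-04, and the block changed no other direction or call. The labels do not say what the numbers mark, and libraries with the same number deviated with a correlation of −0.091 over exon sense features. With the numbers exchanged in *Nef-sp*-/-, a pairing chosen after seeing the data, 99 features, 2 of the 10 genes (*Cyp11a1* and *Cyp17a1*) and 2 other listed genes were called. Scaled to the library total, *Hsd3b6* turned to −0.013. Leaving out each library gave log2 fold changes from −0.50 (without *Nef-sp*-/- replicate 1) to 0.49 for *Star*, −0.30 (without *Nef-sp*+/- replicate 2) to 0.41 for *Lhcgr*, −0.090 (without *Nef-sp*+/- replicate 1) to 0.13 for *Hsd3b6*, −0.049 (without *Nef-sp*-/- replicate 2) to 0.39 for *Insl3* and −0.21 to 0.0069 (without *Nef-sp*-/- replicate 2) for *Scarb1*. For intron sense reads they were −0.27 to 0.25 for *Scarb1* and −0.35 to 0.14 for *Fdx1*, and for *Scarb1* intron antisense reads −0.25 to 0.0053. *Cyp11a1* and *Cyp17a1* stayed negative, at −0.48 to −0.22 and −0.39 to −0.16. The summed difference was −200.1 to −56.7 without a library and −32.0 without *Cyp17a1*. Without *Aif1*, chosen after seeing the data, the summed macrophage difference went from 29.6 to −0.60 CPM. With the longest transcript, 4 genes changed place in the order of levels. The value of *Lhcgr* rests on 90 reads.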
